A study of Homo sapiens with 8 samples.

Results

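The CpGs near the ends of the autosomes were followed through a course of methylation loss in HUES64, an established human embryonic stem cell line. A subtelomeric CpG was taken as one within 1 Mb of the first or last CpG listed on its chromosome on day 0. On chromosomes 13, 14, 15, 21 and 22, whose short arms carry ribosomal DNA repeats, the last CpG alone was used. This gave 39 ends, 17 on short (p) arms and 22 on long (q) arms. They held 141450 CpGs with 10 or more reads in each of the 5 deep libraries, 5.67% of the 2496769 such autosomal CpGs. Of the 177251 subtelomeric CpGs listed in any library, 79.8% had that depth, against 81.0% of the 2909331 listed CpGs in the rest of the same chromosomes.

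All libraries came from cells labelled as a DNMT1 knockout and sampled on days 0, 1, 2, 3, 4, 5, 6 and 7 of DNMT1* withdrawal, with 1 library per day. In this system DNMT1* is an exogenous, repressible DNMT1, so the day 0 cells also lack the endogenous enzyme. Methylation was read by reduced representation bisulfite sequencing (RRBS), a bisulfite method restricted to fragments cut by MspI, which enriches for CpG-rich sequence. There was a single course in a single line and no replicate. The p-values of log-ratio slopes below come from the order of the days. Those of tiles and promoters come from scatter around a fitted trend over the 5 deep libraries. Neither kind covers variation between courses. Between 77691782 and 161534152 CpG read calls came from each of the 5 deep libraries (days 0, 1, 2, 6, 7), whose median depth per CpG was 21 to 44. Days 3, 4 and 5 were shallow, at 12359218 to 15156251 calls and a median depth of 4, and were used in alternatives alone.

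Subtelomeres lie between the telomere repeats and the unique sequence of each chromosome. They carry blocks shared between several ends, CpG-dense promoters of a telomeric noncoding RNA, macrosatellite arrays such as those of 4q and 10q, and otherwise gene-rich DNA. Their CpGs are normally methylated in somatic cells, and DNMT1 copies that methylation onto the new strand at each replication. How reads that match several ends were treated is not given in the sources used here, so levels in shared blocks may mix several ends.

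The sequences of 5 subtelomeric promoters show where the measured CpGs lay. These were printed because all lost most of their methylation and because SYCE1, MOV10L1 and CETN1 are germline genes, while ANHX and LINC02564 were the promoters nearest a chromosome end among those measured. Each line gives the 250 bases before the annotated start, 5′ to 3′, from RefSeq (GRCh38.p14), and capitals mark the CpGs with 10 or more reads in each deep library.
SYCE1: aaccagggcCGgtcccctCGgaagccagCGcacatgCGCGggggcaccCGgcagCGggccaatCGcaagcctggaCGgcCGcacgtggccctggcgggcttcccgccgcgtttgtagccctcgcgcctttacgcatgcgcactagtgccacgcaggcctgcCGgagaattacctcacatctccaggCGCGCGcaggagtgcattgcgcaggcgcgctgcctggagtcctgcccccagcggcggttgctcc
MOV10L1: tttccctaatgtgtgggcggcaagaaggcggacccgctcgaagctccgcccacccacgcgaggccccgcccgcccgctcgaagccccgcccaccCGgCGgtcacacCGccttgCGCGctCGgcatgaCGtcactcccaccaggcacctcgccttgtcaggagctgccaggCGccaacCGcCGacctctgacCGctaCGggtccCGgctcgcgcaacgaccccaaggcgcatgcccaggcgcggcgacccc
CETN1: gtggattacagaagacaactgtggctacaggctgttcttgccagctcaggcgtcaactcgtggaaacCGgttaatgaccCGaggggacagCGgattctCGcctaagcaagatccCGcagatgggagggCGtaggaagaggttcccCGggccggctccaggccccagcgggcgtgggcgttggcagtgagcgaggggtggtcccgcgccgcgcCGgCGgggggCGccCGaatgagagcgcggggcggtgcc
ANHX: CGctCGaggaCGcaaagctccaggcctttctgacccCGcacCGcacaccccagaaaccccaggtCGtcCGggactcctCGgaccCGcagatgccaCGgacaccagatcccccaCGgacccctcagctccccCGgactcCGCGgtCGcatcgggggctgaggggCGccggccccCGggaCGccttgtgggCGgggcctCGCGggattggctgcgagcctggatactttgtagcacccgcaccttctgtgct
LINC02564: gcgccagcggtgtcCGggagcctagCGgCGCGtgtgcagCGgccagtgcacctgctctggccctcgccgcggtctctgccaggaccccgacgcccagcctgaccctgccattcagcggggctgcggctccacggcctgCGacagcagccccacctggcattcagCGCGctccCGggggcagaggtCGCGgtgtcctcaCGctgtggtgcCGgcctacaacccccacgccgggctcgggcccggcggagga
In hg19, the build of the methylation calls, the measured CpGs of each promoter window, which runs on to 50 bases after the start, spanned chr10:135379146-135379327 for SYCE1, chr22:50528279-50528478 for MOV10L1, chr18:580197-580417 for CETN1, chr12:133812439-133812712 for ANHX and chr18:11839-12123 for LINC02564. The windows contain 32, 44, 30, 33 and 33 CG dinucleotides in that order, of which 14, 15, 15, 24 and 16 were measured.

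Chromosome ends started out more methylated than the rest, above all where CpGs were dense. The mean level of subtelomeric CpGs over days 0, 1, 2, 6 and 7 was 57.6%, 54.6%, 48.2%, 13.6% and 11.2%. In the rest it was 54.1%, 51.3%, 45.3%, 13.5% and 11.4%, so the subtelomeric mean was the higher until day 6 and the lower on day 7. By the pooled reads of days 0 and 1, 46.7% of subtelomeric CpGs stood at 80% or more (66106 CpGs), 24.3% between 20% and 80% (34316) and 29.0% at 20% or less (41028). In the rest these shares were 41.3%, 26.9% and 31.8%.

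The ends were also denser in listed CpGs. The median subtelomeric CpG shared its 1-kb tile with others to a total of 21 listed CpGs, against 12 in the rest, and 53.0% against 36.5% lay in tiles with 20 or more. Read depth moved with this, at a median of 56 reads per subtelomeric CpG on day 0 and 50 in the rest. In tiles with 1 to 4 listed CpGs the share at 80% or more was nearly equal, 63.5% at the ends and 62.9% in the rest. In tiles with 20 to 39 it was 49.5% at the ends and 29.3% in the rest, with 40 to 79 it was 27.5% and 10.4%, and with 80 or more it was 14.5% and 2.74%. The share at the ends, taken relative to that in the rest, thus grew with CpG density. These shares describe the library pair of days 0 and 1 and were not tested.

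The question put to the time course was whether methylation at the ends was lost at the pace of other DNA that started at the same level and density. The rest was reweighted to the subtelomeric CpGs over steps of 5 points in starting level and 6 classes of listed CpGs per tile. Highly methylated subtelomeric CpGs, those that started at 80% or more, had mean levels of 89.2%, 85.01%, 74.9%, 21.8% and 18.0% on days 0, 1, 2, 6 and 7. The matched rest had 89.1%, 85.2%, 75.2%, 22.5% and 18.6%. The ends were thus marginally the lower group on each of these days after day 0.

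On day 7 the highly methylated CpGs of the ends retained 20.2% of what they had on day 0, and the matched rest 20.8%. The difference was -0.684 points, with a counting standard error of 0.0261. That error takes CpG calls as independent, though neighbouring CpGs can share reads. On days 1, 2 and 6 the difference was -0.298, -0.522 and -0.752 points. The natural log of the ratio of the ends to the matched rest changed by -0.00508 ± 0.000300 per day (slope ± SE over 5 days). An exact two-sided permutation of the days gave p = 0.00833, the smallest that 120 orders allow, and an adjusted p of 0.0222 over 8 trends. Days 0 and 1, whose pooled level set the matching, are also among the 5 days of the slope. Matching held the ratio near 1 on those days, so a later difference by itself tends to give a slope. The p-value therefore does not show a steady change, and this limit holds for all matched slopes below. Among CpGs that started at 90% or more the sign turned: the ends kept 0.297 points more than the matched rest on day 7, with a slope of 0.00218 per day (exact permutation p = 0.0417).

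CpGs of intermediate level differed more. They ran at 63.9%, 59.7%, 53.1%, 13.4% and 11.2% at the ends, and at 63.7%, 59.97%, 54.1%, 15.2% and 12.8% in the matched rest. On day 7 the ends kept 17.5% of the day 0 level and the matched rest kept 20.03%, a difference of -2.56 points (counting standard error 0.0448). The log ratio changed by -0.0217 ± 0.00180 per day (p = 0.00833 by exact permutation, adjusted p = 0.0222). Matching on days 0 and 1 limits this slope and its p-value in the same way. In CpGs that started at 20% or less, at a mean of 1.48% at the ends and 1.33% in the matched rest on day 0, the slope was 0.0038 ± 0.0020 and missed the threshold (p = 0.2 by exact permutation, also after adjustment).

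**Figure D1:**
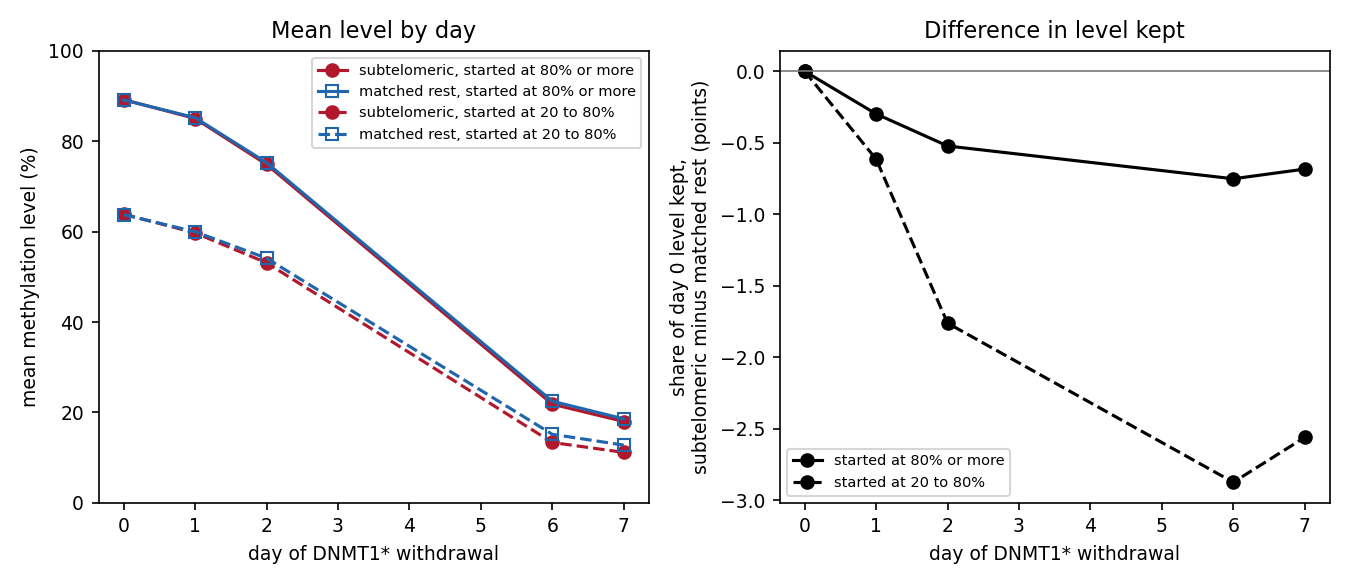
Left, mean methylation level (%) of subtelomeric CpGs (filled) and of the matched rest (open) by day of DNMT1* withdrawal, in the 5 deep libraries, with straight lines across days 3 to 5, which are not plotted. Right, subtelomeric minus matched rest in the share of the day 0 level kept, in points, which reached -0.684 in CpGs that started at 80% or more (solid) and -2.56 in those at 20 to 80% (dashed) on day 7.

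The same contrast could be read CpG by CpG. With 10 reads drawn per CpG and library, and the rest matched as above, 44.9% of subtelomeric CpGs showed no methylated read on day 7, against 43.0% in the rest. On day 0 the shares were 26.1% and 26.5%. CpGs with at most 2 methylated reads of the 10 made up 84.8% at the ends and 83.1% in the rest on day 7, and 29.9% at both on day 0. Those with 8 or more had nearly gone by day 7, at 0.125% of subtelomeric CpGs and 0.0818% of the rest.

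Highly methylated CpGs of the last 250 kb lay further below the matched rest on day 7 than those beyond. Within 100 kb of the end, 5333 of them kept 17.9% on day 7, against 20.1% in the matched rest, a difference of -2.19 points. At 100 to 250 kb (5839 CpGs) the difference was -1.83, at 250 to 500 kb (17261) it was -0.563, and at 500 to 1000 kb (37673) it was -0.350. The log-ratio slopes of these bins were -0.0189, -0.0147, -0.0039 and -0.0024 per day. Their adjusted p-values, from exact permutation, were 0.0667, 0.0222, 0.0333 and 0.0533, so the bins at 100 to 250 kb and 250 to 500 kb passed. The nearest comparison beyond the ends, at 1 to 2 Mb, had -0.355 points. At 2 to 5 Mb the difference was -0.0081, and at 5 to 10 Mb 0.240. Within the last 250 kb the differences did not follow distance: they were -2.52 points at 0 to 50 kb, -1.49 at 50 to 100 kb and -1.83 at 100 to 250 kb.

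The bin within 100 kb did not fall behind from the start. On day 2 it kept 85.9%, against 85.5% in the matched rest, and was the lower only on days 6 and 7, when it kept 22.3% and 17.9%, against 24.7% and 20.1%. Most of this day 2 excess of 0.462 points came from 4q and 10q, which supplied 22.4% and 17.0% of the CpGs of this bin. Their last 100 kb lay 0.960 and 1.31 points above the matched rest on day 2. The day 2 difference of the bin without these ends was not calculated, so an excess over the other ends as a whole is not shown. In the last 5 kb, 719 highly methylated CpGs of 35 ends kept 1.48 points more than the matched rest on day 2 and 3.39 points less on day 7. Other narrow bins differed: 137 CpGs at 5 to 10 kb kept 2.25 points more on day 7, with 37.2% of them from the 3q end, and 796 CpGs at 50 to 75 kb kept 0.332 points less. Depth moved with distance as well, with a median of 81 reads on day 0 for highly methylated CpGs within 50 kb and 60 at 500 to 1000 kb. With depth added to the matching, the slope within 100 kb was -0.0171.

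Intermediate CpGs did not show the same gradient. Their difference on day 7 was -2.69 points within 50 kb, -2.86 at 500 to 1000 kb and -2.99 at 1 to 2 Mb, and shrank to -0.411 at 5 to 10 Mb. The lower level of this class therefore reached well beyond 1 Mb and was not particular to the outermost megabase.

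**Figure D2:**
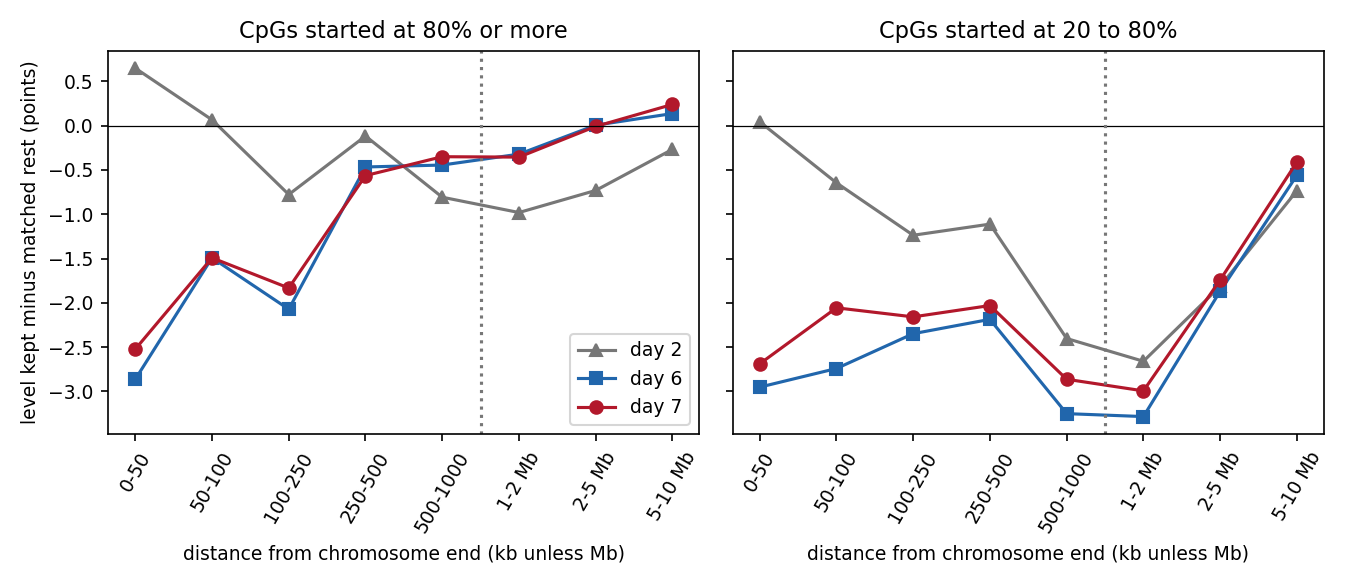
Share of the day 0 level kept minus that of the matched rest (points) by distance from the chromosome end, for CpGs that started at 80% or more (left) and at 20 to 80% (right), on days 2, 6 and 7; the dotted line marks 1 Mb. On days 6 and 7 the left panel lies lowest within 250 kb and reaches -0.350 at 500 to 1000 kb on day 7, and the right panel stays low to 2 Mb.

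The sign of the difference depended on starting level in the inner part of the ends and not in the outer part. Within 250 kb of the end, CpGs kept less than the matched rest on day 7 at every one of 7 steps of starting level, by 1.12 points (started at 20 to 40%) to 2.55 points (60 to 80%), and by 1.78 points at 95% or more. Between 250 kb and 1 Mb the difference was -2.78 points at 60 to 80%, -1.65 at 80 to 85%, -0.617 at 85 to 90%, 0.571 at 90 to 95% and 1.46 at 95% or more. The turn of sign at 90% noted above thus came from the inner CpGs, with 15363 and 2760 of them in the upper steps against 2773 and 408 within 250 kb. These differences were not tested.

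**Figure D3:**
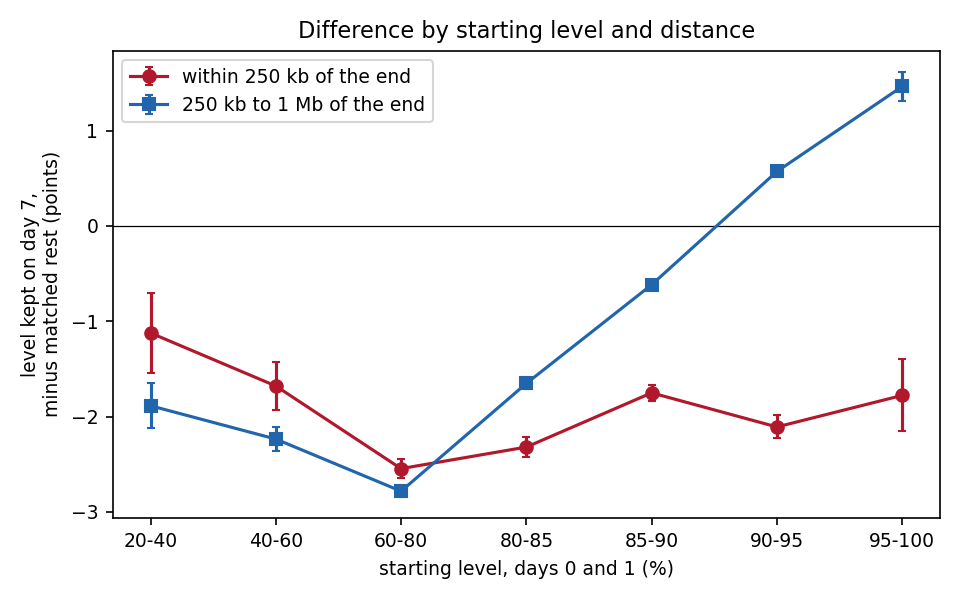
Share of the day 0 level kept on day 7 minus that of the matched rest (points) by starting level, for CpGs within 250 kb of the end (circles) and from 250 kb to 1 Mb (squares); bars are counting standard errors. The circles stay below 0 throughout, and the squares lie above it from 90% on.

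CpG density inside the subtelomeres went with a crossing of the curves. Highly methylated CpGs in tiles of 40 or more listed CpGs (10819) kept 87.0% on day 2 and 17.9% on day 7. Those in tiles of 4 or fewer (6941), matched on starting level, kept 81.9% and 21.05%. Dense tiles were thus 5.08 points above sparse ones on day 2 and 3.15 points below on day 7. Their log ratio had a slope of -0.0273 ± 0.0078 daily, which missed the threshold (p = 0.0833 by exact permutation, adjusted p = 0.0952). The crossing was not particular to the ends. In the rest, weighted to the starting levels of the ends, tiles of 1 to 4 listed CpGs kept 82.0% on day 2 and 21.1% on day 7. There, tiles of 40 to 79 kept 86.7% and 19.6%, and tiles of 80 or more kept 87.3% and 17.5%. Against the rest at the same density, the day 7 difference did not follow density: it was -0.375 points in tiles of 1 to 4 listed CpGs, -0.358 at 5 to 9, -0.794 at 10 to 19, -0.455 at 20 to 39, -1.54 at 40 to 79 and -0.505 at 80 or more.

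The 39 ends varied widely. They held 435 to 9535 member CpGs, with mean levels between 35.9% and 82.1% on day 0 and between 7.22% and 15.5% on day 7. Each end's highly methylated CpGs kept 15.3% to 23.1% of their day 0 level on day 7, with a median of 19.9%. Set against the matched rest of its own chromosome, 27 ends kept less on both day 6 and day 7, 9 kept more on both, and 3 changed sign between the days. The median difference on day 7 was -0.883 points.

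To see how unusual this was, the same comparison was made for 2482 windows of 1 Mb elsewhere on the autosomes. Over all 2521 windows and ends, 38.6% kept less on both days and 35.8% kept more, against 27 and 9 of the 39 ends. Deficits thus outnumbered excesses at the ends, while over all windows their numbers were close. Over all of them, 11.7% kept at least 1 point less than the matched rest on both days. Of the ends, 16 of 39 (41.0%) did so, against 279 (11.2%) of the other windows. At least 1 point more on both days was kept by 3 ends (7.69%) and by 228 other windows (9.19%), or 9.16% of all. The median difference of the other windows on day 7 was -0.0219 points, with an SD of 1.16. The excess of ends therefore lay on the low side. An exact permutation of the days gave p under 0.05 with a downward slope for 17 ends (43.6%) and 11.7% of all windows and ends, but none passed after adjustment over all windows (smallest adjusted p = 0.146), and 120 orders give no unadjusted p below 0.00833.

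Intermediate CpGs leaned further the same way. In that class 34 of 39 ends kept less on both days and 3 kept more, where 29.2% of all 2100 windows and ends kept less and 50.8% kept more. The median difference on day 7 was -2.11 points over the ends and 0.443 over the other windows.

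The lowest end was 14q, where 378 highly methylated CpGs kept 95.4%, 84.7%, 19.1% and 15.3% on days 1, 2, 6 and 7, against 95.3%, 84.2%, 24.8% and 20.5% in the matched rest of chromosome 14. It was 0.508 points above the rest on day 2 and 5.13 points below it on day 7. The 10q end (3576 CpGs) kept 21.04% and 16.9% on days 6 and 7, against 24.7% and 20.4%, and the 6q end (1276) kept 22.3% and 17.6%, against 25.3% and 20.9%. At the other extreme, the 22q end (2347) kept 27.2% and 23.1%, against 25.4% and 21.05% in the rest of chromosome 22. The 21q end (2162) kept 27.3% and 22.8%, against 25.8% and 21.3%, and the 16q end (2223) kept 26.6% and 22.1%, against 25.3% and 21.01%. The low and high ends held on days 6 and 7 alike, but both days belong to the same course.

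At 22q the outermost 250 kb went the other way, with a difference of -2.93 points on day 7 where the whole end had 2.05. Over all 39 ends the outermost 250 kb differed from the matched rest by a median of -2.08 points on day 7 (-5.35 to 2.15). Long-arm ends had a median of -1.16 points (-5.13 to 2.05) and short-arm ends -0.652 (-1.82 to 0.911). The range of the short-arm ends lay within that of the long-arm ends.

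**Figure D4:**
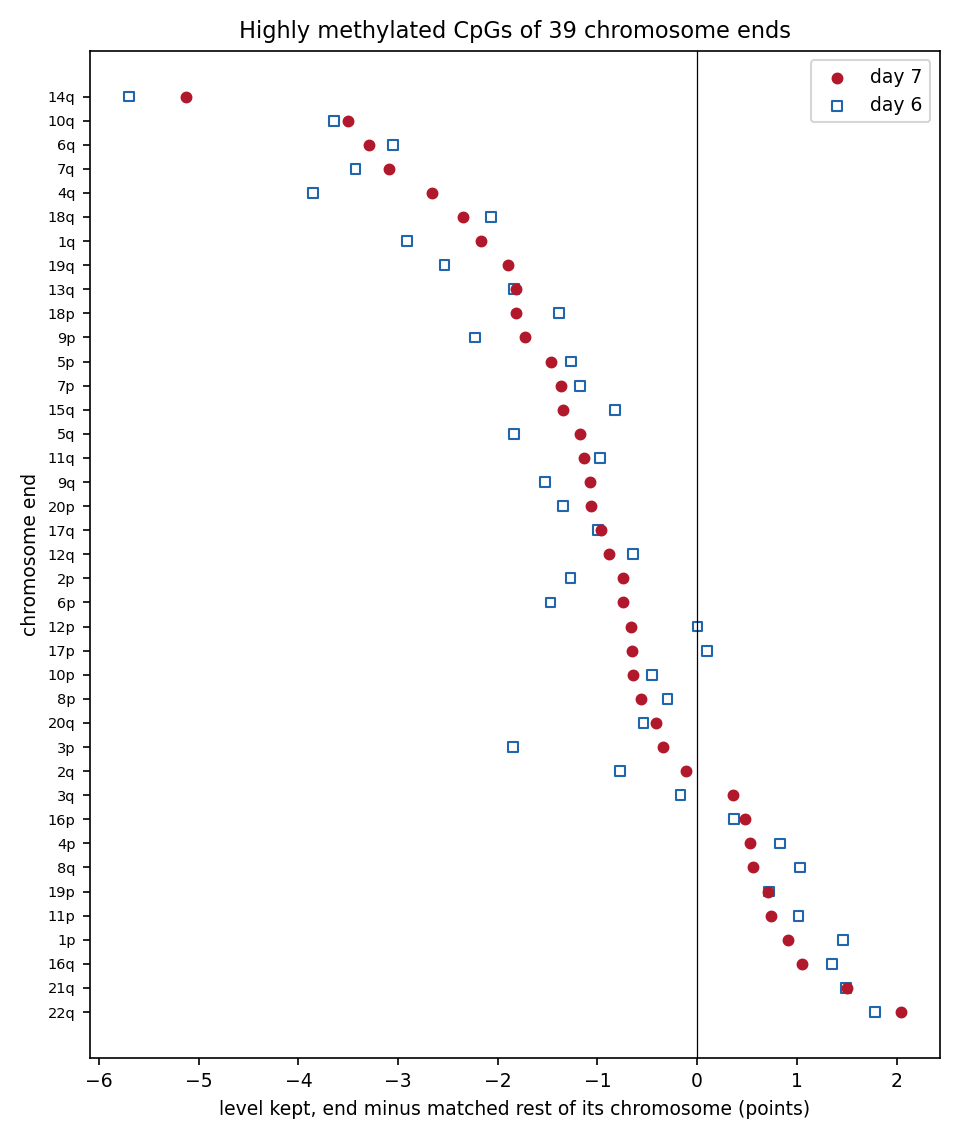
Level kept by highly methylated CpGs of each chromosome end minus the matched rest of its own chromosome (points), on day 7 (filled circles) and day 6 (open squares), ordered by day 7. The ends run from 14q at -5.13 to 22q at 2.05, and 29 of 39 lie below 0 on day 7.

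The ends of 4q and 10q carry D4Z4 macrosatellite arrays, tandem copies of a unit that contains DUX4, and their listed CpGs recurred at a regular spacing. In the last 100 kb the commonest distance between listed CpGs was 3293 bp at 4q (680 pairs, against a median of 99 per distance) and 3310 bp at 10q (602 pairs, against 67). These windows supplied 22.4% and 17.0% of all highly methylated CpGs within 100 kb of an end. They kept 16.5% at 4q and 15.9% at 10q on day 7, each against 19.3% in the matched rest. Without both ends, the difference of all highly methylated subtelomeric CpGs on day 7 was -0.483 points in place of -0.684. The slope within 100 kb was then -0.0124 in place of -0.0189 (exact permutation p = 0.0417, not adjusted over the trends).

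At the scale of 1-kb tiles with 3 or more measured CpGs, the regression of methylated reads on day found a trend almost everywhere that methylation was present. Of all 263521 autosomal tiles, 90.9% fell (limma-moderated quasi-binomial F test, adjusted p below 0.05). Of the 11324 subtelomeric tiles, 10621 fell (93.8%), 1 rose (0.00987% of all tiles rose) and 702 did not pass, against 90.8% falls in the rest. All 5662 tiles that started at 80% or more fell, and so did all 4394 that started between 20% and 80%. Such counts therefore separate the ends from the rest only among tiles that started low.

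Among tiles at 20% or less, 25.6% of all 32190 fell, with 565 of the 1268 subtelomeric ones (44.6%) and 7691 of the other 30922 (24.9%). These subtelomeric tiles began higher, at a median of 1.14% against 0.338%. They also held more reads, at a median of 1569 against 1071 on day 0. Reads of a tile were summed over its CpGs, so a read that covers several CpGs counts for each. What part starting level and depth had in the count was not tested. The single rise was at chr16:1031001-1032000, where 0.258% of 3495 reads were methylated on day 0 and 0.701% of 3280 on day 7 (adjusted p = 0.0469 by the same test). At chr1:567001-568000, 6 CpGs held 166640 reads on day 0, of which 0.169% were methylated, a depth far above the median of 455 reads for a subtelomeric tile.

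Highly methylated subtelomeric tiles had a median level of 19.02% when days 6 and 7 were pooled, and ranged from 4.17% to 52.9%. In the rest the median was 19.8%. A level of 1.5 times the median of all such tiles, 29.7%, was reached by 430 subtelomeric tiles (7.59%) and 5.997% of the rest, and a level of 0.5 times or less by 93 (1.64%) and 0.829%. The ends thus held a larger share of both kinds, which were not compared by a test. These tiles were not matched on CpG density or on starting level, which had a median of 86.2% at the ends and 85.2% in the rest.

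The best-retained tile, chr7:795001-796000, had 94.0%, 88.2%, 93.9%, 64.9% and 38.1% methylated reads on days 0, 1, 2, 6 and 7. Its pooled level of 52.9% had a Wilson 95% interval of 44.6% to 60.9%. At chr3:197431001-197432000 the levels were 97.3%, 83.3%, 66.7%, 50% and 54.5%, with 155 reads behind the pooled 52.3%. A deeper example was chr11:601001-602000, at 94.6%, 82.9%, 82.0%, 49.6% and 51.2%, whose pooled 50.4% had an interval of 46.1% to 54.7% (512 reads). Pooled over days 6 and 7, all 3 stood above 50%, far over the median of such tiles. The other 7 of the highest 10 lay at chr11:687001-688000 (49.5%), chr22:50736001-50737000 (47.7%), chr17:80204001-80205000 (47.7%), chr8:145536001-145537000 (46.4%), chr19:58806001-58807000 (45.9%), chr12:133434001-133435000 (45.6%) and chr19:58294001-58295000 (45.5%). The chr19:58806001-58807000 tile, with 8 CpGs and 728 reads, was the best covered.

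The lowest tiles had lost nearly everything. At chr8:862001-863000 the levels on days 0, 1, 2, 6 and 7 were 84.3%, 83.3%, 71.0%, 2.82% and 6.12%, and the pooled 4.17% of days 6 and 7 had an interval of 1.79% to 9.38%. At chr12:132826001-132827000 they were 89.3%, 83.1%, 62.9%, 7.69% and 1.87%. The best covered of the lowest 10 was chr7:465001-466000, with 14 CpGs, at 83.6%, 72.2%, 61.8%, 7.16% and 5.31%. The pooled levels of the other 7 were 6.24% at chr21:47295001-47296000, 6.32% at chr11:134916001-134917000, 6.41% at chr5:569001-570000, 6.58% at chr16:919001-920000, 6.68% at chr2:242884001-242885000, 6.70% at chr1:918001-919000 and 6.83% at chr9:1000001-1001000. The largest fitted falls were 89.4 points at chr9:1000001-1001000, 88.9 points at chr20:61973001-61974000, 87.1 points at chr12:132826001-132827000, 87.0 points at chr11:134916001-134917000 and 86.6 points at chr16:922001-923000. Highest and lowest tiles were picked by these same values, so their distance from the median is a description.

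Genes were reached through promoters whose CpG pattern could be placed on the list of CpGs, 503 subtelomeric windows of 437 genes and 11284 windows in the rest. Only windows with at least 8 listed CpGs could be placed. Among those placed, methylated promoters were commoner at the ends: 67 subtelomeric windows (13.3%) started above 20%, against 667 (5.91%) of the others. The subtelomeric windows also held more CG dinucleotides, a median of 36 against 31. Some windows overlapped and shared CpGs, wholly so for PDCD6 and PDCD6-AHRR, and each window was counted. Of all 11787 windows 6.73% fell (the same moderated F test, adjusted over all windows), with 73 falls (14.5%) at the ends and 720 (6.38%) in the rest, and none rose. All 34 subtelomeric windows that started at 80% or more fell, as did 32 of 33 that started between 20% and 80% and 7 of 436 that started at 20% or less. Over all windows of the same classes, 376 of 376, 312 of 358 (87.2%) and 105 of 11053 (0.950%) fell, so falling from a high start was general.

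Among highly methylated promoters, the share kept on day 7 was much the same at the ends as elsewhere. The 34 highly methylated windows kept a median of 15.1% of their day 0 level on day 7 (9.88% to 26.4%), and the 342 in the rest kept 15.8%. Of the 34, 16 kept more than the median of the rest. The intermediate windows kept a median of 12.1% (4.45% to 24.8%) at the ends and 14.7% in the rest, but had started higher, at a median of 67.9% on day 0 against 46.0%. Windows were not matched on starting level or CpG density, and these differences were not tested. No subtelomeric promoter window that started at 80% or more ended above 24.5%.

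Genes of the germ line were among the highly methylated ones. SYCE1, a central element protein of the synaptonemal complex that joins chromosomes in meiosis, lies 145 kb from the 10q end. Its promoter had 88.3%, 81.5%, 72.25%, 15.6% and 10.3% methylated reads on days 0, 1, 2, 6 and 7 (adjusted p = 0.00136). MOV10L1, an RNA helicase of piRNA production in testis, lies on 22q and had 85.3%, 90.1%, 80.1%, 13.7% and 14.99% (adjusted p = 0.0116). CETN1, a centrin made in testis, lies on 18p and had 92.2%, 89.9%, 81.6%, 26.5% and 14.9% (adjusted p = 0.00136). Most of their loss came between days 2 and 6, as it did in the highly methylated matched rest, which stood at 75.2% on day 2 and 22.5% on day 6. The Wilson 95% intervals on day 7 were 8.28% to 12.8%, 12.3% to 18.1% and 12.6% to 17.7%. SYCE3, another synaptonemal complex gene, and DMRT1, a regulator of testis development, were unmethylated throughout, at 0.0864% and 0.397% on day 0 and 0.114% and 0.167% on day 7.

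ANHX, an atypical homeobox gene 11.1 kb from the 12q end, was measured in 2 overlapping windows. The window with 24 measured CpGs had 86.1%, 86.7%, 76.2%, 18.7% and 15.2% on days 0, 1, 2, 6 and 7, and fell (adjusted p = 0.00302). The promoter nearest to an end was that of LINC02564, a noncoding RNA gene 1.18 kb from the first listed CpG of chromosome 18. It had 52.9%, 49.4%, 38.8%, 4.13% and 4.21%, fell (adjusted p = 0.00651), and kept 7.97% of its day 0 level, below the median of intermediate windows. Of 27 windows within 100 kb of an end, 4 started above 20%. FOXL3, a forkhead gene on 7p that sets germ cell sex in the fish medaka, had 31 measured CpGs and went through 90.1%, 88.6%, 78.4%, 16.5% and 13.2%.

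Other highly methylated promoters belonged to genes of varied function. CHL1 (3p), a neural adhesion molecule of the L1 family, had 91.8% on day 0 and 14.2% on day 7. FTCD (21q), an enzyme of histidine breakdown in liver, had 89.4% and 18.1%, EPS8L2 (11p), an actin regulator of inner-ear hair cells, had 90.2% and 11.6% in 1 of its windows, and LRRK1-AS1 (15q), an antisense RNA gene, had 91.7% and 23.6%. Among intermediate promoters, 1 window of AHRR, the repressor of the aryl hydrocarbon receptor, had 75.6% and 7.77%, while its other window had no methylated read on either day, which allows up to 0.198% on day 7. DUSP22, a phosphatase gene on 6p, had 25.4% and 5.54%, and SLC16A3, a lactate transporter on 17q, had 69.2% and 9.47%. LRRC56 was the 1 intermediate window that did not pass, with 43.7%, 53.8%, 47.6%, 8.75% and 5.25% over the 5 days (adjusted p = 0.0736).

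Of the low promoters that fell, RTEL1, which encodes a helicase that protects telomeres, is itself a gene of the 20q end. Its window had 12.7%, 8.71%, 8.13%, 2.03% and 2.17% over the 5 days (adjusted p = 0.0055). The others were PLEKHN1, LOC105375118, FSTL3, LKAAEAR1, and 1 window each of TYMP and KLHDC7B-DT, which started between 3.27% and 18.8% and ended between 0.517% and 2.09%. The pluripotency gene UTF1 on 10q and the homeobox gene VENTX beside it were at 0.192% and 0.482% on day 0 and at 0.127% and 0% on day 7, where the 0 allows up to 0.494% by counting (3 reads). FRG1, near the 4q array, had 4.58% on day 0 and 0.479% on day 7 (adjusted p = 0.0735, not passed). On 19q, 16 of 20 zinc finger promoter windows started at 20% or less, none of them above 0.380% on day 0. The other 4, of ZSCAN1, ZNF135 (2 windows) and ZSCAN18 (1 of its windows), started at 61.1% to 83.3% on day 0 and were at 6.90% to 16.7% on day 7.

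**Figure D5:**
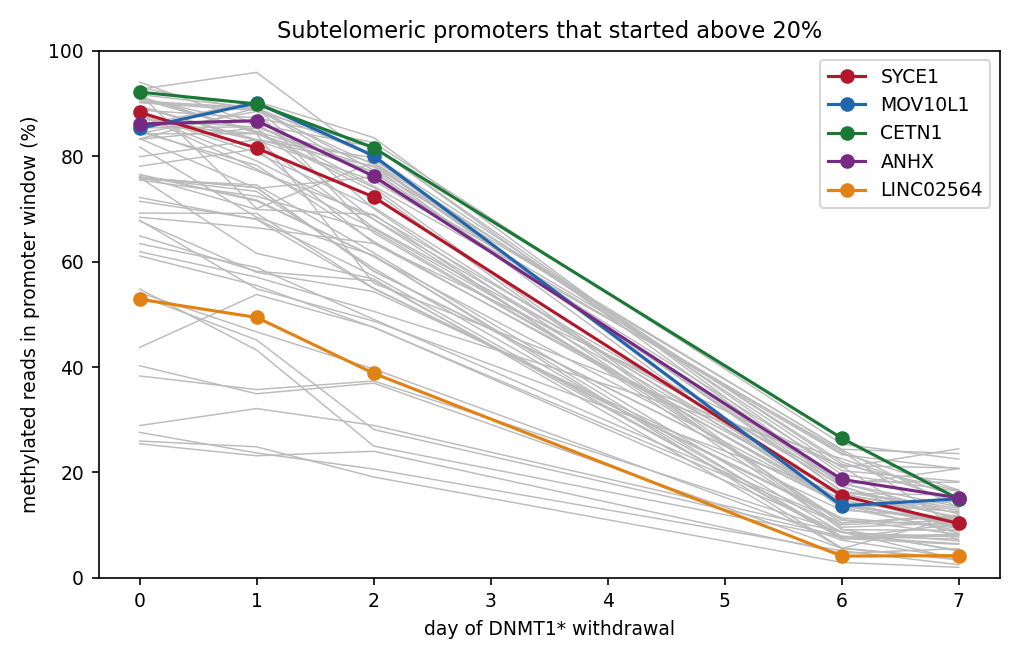
Methylated reads (%) in the 67 subtelomeric promoter windows that started above 20%, by day of DNMT1* withdrawal in the 5 deep libraries, with straight lines across days 3 to 5, which are not plotted; 5 windows are coloured. Each window that started at 80% or more ended at 24.5% or less on day 7, and LINC02564 ended at 4.21%.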

How the data were processed

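RRBS libraries of 8 days, 1 per day, were analysed. The authors deposited 1 line per CpG with a text of methylated over total reads and a score, which equals 1000 times the methylated share; the read numbers were used. The submitters' processing notes name hg19, and per the labels' protocols libraries followed a published RRBS method. The aligner, the caller and the handling of duplicate or multiply matching reads were not given in the sources used here. Depth per library is given in the report. Read numbers of tiles and promoter windows are sums over their CpGs, so a read that covers several CpGs counts for each. Wilson 95% intervals and counting errors took these calls as independent. Without molecular identifiers, reads also need not stand for separate molecules. Both therefore cover counting error only and may be too narrow.

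CpGs needed 10 or more reads in 5 libraries. Levels were averaged over CpGs. The rest was standardised to the subtelomeric CpGs by starting level (pooled days 0 and 1) and listed CpGs per 1-kb tile over the 8 libraries. Slopes of natural log ratios were tested by exact two-sided permutation of the days, with Benjamini-Hochberg adjustment over 8 trends; single ends were adjusted over all windows of 1 Mb with 100 or more highly methylated CpGs. Tiles and promoters were fitted by quasi-binomial regression on day, with the dispersion moderated by limma's squeezeVar along log reads and kept at 1 or more, and adjusted at 0.05 over all tiles or windows. Moderation along information per tile was dropped after simulated data gave it a higher rate of false calls. On simulated reads of 5000 tiles the test found 100%, 86%, 38% and 90% of changes of -0.4, -0.2, -0.1 and 0.2 in daily log odds, and 9 of its 166 calls were false. A planted extra log slope of -0.01 in the matched comparison came back as -0.00962.

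No hg19 genome was used. RefSeq promoter windows (250 bases before to 50 after the start, GRCh38.p14) were placed by the spacing of their CG dinucleotides against the listed CpGs, with at least 8 listed. Of 33725 autosomal windows 12172 could be placed, and 63 with several places were left out. Of those placed, 99.6% had an offset from their GRCh38 position within 1000 bases of that of an adjacent placed window. Of 519 subtelomeric windows 513 did and were kept, and 503 had 3 or more measured CpGs. The members, lists and tests were chosen with earlier results of these data known. Named tiles were the 10 highest and 10 lowest on days 6 and 7, the 5 largest falls and all rises; named ends the 3 highest and 3 lowest; promoters, and all distance bins inside 100 kb, were chosen after their values were seen. Alternatives covered read minimums, widths, classes, matching, weights, tiles and days. Python 3.11.15, numpy 2.4.6, pandas 2.3.3, scipy 1.17.1, numba 0.67.0, R 4.3.3 and limma 3.58.1 were used.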

Additional observations from a re-analysis of the deposited data

Results flagged for a closer look

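The X chromosome entered none of the comparisons above. Highly methylated CpGs within 1 Mb of its ends kept 19.5% of their day 0 level on day 7 at Xp (2106 CpGs) and 20.2% at Xq (242 CpGs), against 20.8% in the rest of X (32495 CpGs, not matched). They were singled out as a signal outside the autosomes and were not tested.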

How the results depend on the processing

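No paired analysis was possible because each day has 1 library. The sign turned with the class at 90% or more, where the day 7 difference was 0.297 and the slope 0.00218. The day 7 difference was -1.12 points with 500 kb, -0.548 with 2 Mb, -1.01 without matching on density, -0.760 with reads weighted, -1.004 with ends weighted equally, -0.736 without chromosome 19, -0.483 without 4q and 10q, -0.417 without the last 250 kb and -0.752 on day 6. The highly methylated slope lost its call without density matching (-0.00745, p = 0.05 by exact permutation). With a day left out it ran from -0.00534 to -0.00491, and the intermediate slope from -0.0233 to -0.0205. Neither was called without day 0 or without day 2, each at an exact permutation p of 0.0833. That is the smallest p those sets of 4 days allow, because the days are spaced symmetrically and each order ties with its reverse. A call was not possible there, so its loss says nothing about those days. For the other sets of 4 days the smallest exact p is 0.0417. Before adjustment over the 8 trends, the slope within 100 kb had an exact permutation p of 0.05 in the main setting. That unadjusted p was under 0.05 with 5 reads (-0.0192), all 8 days (-0.0164), without 4q and 10q (-0.0124) and without the deepest 1% of CpGs (-0.0180). These alternatives were not adjusted, so they cannot be set against the adjusted p of 0.0667 above. With 20 reads the arm difference of medians, q minus p, was -0.916 points in place of -0.504, the excess of CpGs with at most 2 of 10 reads methylated was 1.47 points in place of 1.66, and the depth excess 7 reads in place of 6. Tiles of 5 kb gave 4878 trends of 4969 tiles, in place of 10622 of 11324. The remaining 66 such values stayed on their side of the threshold or within their error. Among single ends, tiles and promoters, 133 values stayed so and 16 moved, each with 20 reads: 10 ends, of which 3q changed sign (-0.255 points in place of 0.358) and 9p reached -0.614 in place of -1.72, the tile chr7:465001-466000 (3.85% in place of 6.22%) and 5 promoters, among them SYCE1 (7.29% in place of 10.3%) and TYMP (3.27% in place of 1.99%). The cause of these changes was not tested. With 1 course, small differences rest on counting error alone, and shallow days limit what can be said of days 3 to 5.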
